A study of Mus musculus with 11 samples.

Results

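Serum amyloid A1 (Saa1) and leucine-rich alpha-2-glycoprotein 1 (Lrg1), both secreted acute phase proteins, were followed across epithelial cells of the mouse small intestine in 3 groups. The genes were taken by symbol from the deposited expression table, which listed 11366 genes. Of 4 symbols sought, Saa1 and Lrg1 had a row and Saa2 and Saa3 were not analysed here. All mice were wild type. SFB mice ate standard chow and had been colonized with SFB, read here as segmented filamentous bacteria, commensals that attach to the ileal epithelium (4 libraries). NFF mice ate a diet with little fermentable fiber and had no other treatment (4 libraries), and Control mice ate standard chow with no treatment (3 libraries, numbered 2, 4 and 5). Live cells had been sorted for EpCAM, an epithelial adhesion molecule, and against CD45 (leukocytes), CD31 (endothelium) and CD44 (enriched in crypts). The labels do not give age, sex or the stretch of intestine. Whether each library stems from its own mouse is not stated either. The p-values therefore reflect variation among these libraries, part or all of which may be technical.

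Serum amyloid A proteins are small lipoprotein-bound proteins that the liver releases in the acute phase and that the gut epithelium also makes. In the ileum, attachment of segmented filamentous bacteria is known to raise SAA, through IL-22 from lymphoid cells and STAT3 in epithelial cells, and SAA in turn acts on cells that shape Th17 responses. LRG1 is a secreted glycoprotein made by liver, neutrophils and epithelium. It is induced by cytokines such as IL-6 and IL-22 and modulates TGF-beta signalling, chiefly known from endothelial cells.

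Saa1 lies on the minus strand of chromosome 7 (GRCm38, chr7:46740497-46742980), where its coding transcript of 609 bases has 4 exons. Lrg1 lies on the minus strand of chromosome 17 (chr17:56119678-56122001), with a coding transcript of 1408 bases in 2 exons. The 2 promoters are shown because acute phase genes are classically driven through C/EBP, NF-kB and STAT sites. Each window runs from 250 bases before the RefSeq start site to 50 bases of the transcript, on the gene's strand, in RefSeq sequence of GRCm38.p6 (Saa1 chr7:46742931-46743230, Lrg1 chr17:56121897-56122196). Capitals mark matches, on either strand, to TTGCNNAA (C/EBP), TTCNNNGAA (STAT), TATAAA or the NF-kB consensus; no matches overlapped.
Saa1 promoter: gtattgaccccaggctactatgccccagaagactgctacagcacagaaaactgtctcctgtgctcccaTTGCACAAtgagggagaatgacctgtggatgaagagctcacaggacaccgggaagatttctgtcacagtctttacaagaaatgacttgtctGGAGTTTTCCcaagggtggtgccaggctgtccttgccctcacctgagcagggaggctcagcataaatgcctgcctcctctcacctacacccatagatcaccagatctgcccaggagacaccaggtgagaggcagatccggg
Lrg1 promoter: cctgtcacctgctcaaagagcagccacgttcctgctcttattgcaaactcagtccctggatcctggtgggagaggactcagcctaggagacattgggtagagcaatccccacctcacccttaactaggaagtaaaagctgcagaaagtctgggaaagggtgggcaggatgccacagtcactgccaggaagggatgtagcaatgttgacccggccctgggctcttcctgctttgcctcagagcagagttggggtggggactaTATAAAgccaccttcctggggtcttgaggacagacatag
The Saa1 window held a C/EBP match, TTGCACAA, whose first base lay at -182 from the start site, and an NF-kB match, GGAGTTTTCC, at -91. The Lrg1 window held TATAAA at 12 to 17 bases into the transcript, counted from the RefSeq start site, and no other match. The GENCODE start of Lrg1, at chr17:56122001, lies upstream of that RefSeq site, within the window. Neither window matched the STAT letters. Among 32851 promoters of the same length, 10.8% held the C/EBP letters, 11.2% the NF-kB consensus, 8.3% the STAT letters and 13.6% TATAAA, so such matches are common and mark no site by themselves.

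Saa2, the neighbouring copy of Saa1, is shown beside it because the 2 genes are close in sequence. The Saa1 and Saa2 promoter windows were identical at 287 of 299 aligned bases, and the differences T16A and C19A, counted from the first base shown, fell within the NF-kB match of Saa1. Capitals mark the 10 bases of that match and those aligned with it.
Saa1: tgacttgtctGGAGTTTTCCcaagggtggt
Saa2: tgacttgtctGGAGTATTACcaagggtggt
The coding transcripts of Saa1 and Saa2 were identical at 572 of 606 aligned bases (94.39%), and 51 of 560 windows of 50 bases in Saa1 (9.107%) also occurred in Saa2. Saa1 and Saa3 shared 0 such windows. How reads from the shared windows were counted is not given in the sources used here, so Saa1 values may hold reads from Saa2. RefSeq lists each of the names Saa1 and Saa2 as a synonym of the other gene. The row used here carried the Entrez identifier that RefSeq gives to Saa1.

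Expression was given as RPKM, reads scaled to gene length and to library size. Whole-number steps in the low values gave depths of 6980000 to 17720000 reads, or read pairs, per library. Epcam, the sorted-for marker, stood at 493.9 to 670.4 RPKM in SFB, 585.6 to 648.1 in NFF and 489.5 to 614.9 in Control. Ptprc, which encodes CD45, stood at 0.247 to 2.48 RPKM over the 11 libraries. Control 2 stood apart in gut position: Fabp6, the ileal bile acid binding protein, was at 145.7 RPKM there, against 1762 to 4352 RPKM in the other libraries, and Fabp1, a proximal fatty acid binding protein, was at 2665 RPKM, against 20.4 to 580.9. The libraries farthest from their group means over all tested genes were SFB 4, SFB 2 and Control 2. Results are therefore also given without these 3 libraries.

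The highest Saa1 values were in 2 SFB libraries and the lowest in 2 Control libraries. Saa1 stood at 70.7, 245.9, 343.5 and 88.3 RPKM in SFB 1 to 4, at 95.6, 15.1, 60.7 and 65.2 RPKM in NFF 1 to 4, and at 9.92, 89.5 and 5.46 RPKM in Control 2, 4 and 5. SFB 2 and SFB 3 exceeded every NFF and Control library, and Control 4 exceeded SFB 1 and SFB 4, so SFB and Control overlapped through that library alone. Mean ± SD was 187 ± 131 RPKM in the 4 SFB libraries, 59.15 ± 33.2 RPKM in the 4 NFF libraries and 35.0 ± 47.3 RPKM in the 3 Control libraries. Saa1 ranked above 94.61% to 99.25% of the genes in the table in SFB libraries, above 76% to 96.21% in NFF libraries, and above 50.41%, 67.57% and 95.79% in Control 5, 2 and 4. It rested on 50 to 1783 reads per library, and the 95% counting interval of the lowest value, Control 5, was 4.05 to 7.20 RPKM. Counting error was thus small beside the spread between libraries. Intervals cover counting error only, since reads without molecular identifiers are not independent molecules.

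Lrg1 was under 1 RPKM in every NFF library and in 2 of 3 Control libraries. It stood at 3.24, 6.38, 29.9 and 34.3 RPKM in SFB 1 to 4, at 0.617, 0.313, 0.613 and 0.053 RPKM in NFF 1 to 4, and at 0.064, 6.93 and 0.142 RPKM in Control 2, 4 and 5. Every SFB library exceeded every NFF library, and SFB and Control overlapped only through Control 4, which lay above SFB 1 and SFB 2. Mean ± SD was 18.45 ± 15.9 RPKM in the SFB libraries (n = 4), 0.399 ± 0.271 RPKM in the NFF libraries (n = 4) and 2.38 ± 3.94 RPKM in the Control libraries (n = 3). The reads behind these values were 57, 107, 294 and 855 in SFB, 10, 6, 12 and 1 in NFF, and 1, 153 and 3 in Control. With 1 read, the 95% interval ran from 0.001339 to 0.295 RPKM in NFF 4 and from 0.001621 to 0.357 RPKM in Control 2. The intervals of NFF 1 and NFF 3 lay just above that of NFF 4, and all other pairs among the 6 libraries with 12 or fewer reads overlapped. The high Lrg1 of SFB 3 and SFB 4 came with a high Saa1 in SFB 3 and a low one, for that group, in SFB 4. In bulk samples, more cells that make a transcript and more RNA per cell cannot be told apart.

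**Figure D1:**
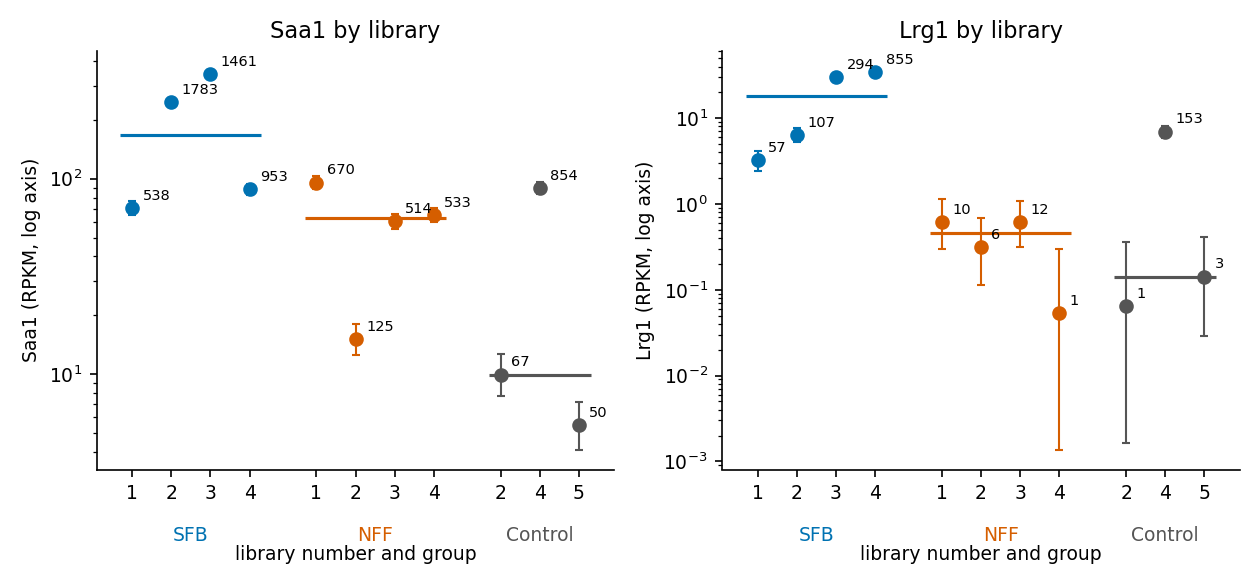
RPKM of Saa1 (left) and Lrg1 (right) on log axes, by library number in the SFB, NFF and Control groups; points are libraries, whiskers 95% counting intervals, lines group medians and numbers the reads behind each value. Lrg1 is at 3.24 RPKM or more in all 4 SFB libraries and under 1 RPKM in all NFF libraries, and Control 4 stands above the other Control libraries for both genes.

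The comparison of SFB with Control bears on colonization with diet held the same. Saa1 had the highest log2 fold change of all 10482 genes tested, 3.04 ± 0.89 (SE; 95% interval 1.10 to 4.98), and Lrg1 the 4th, 2.67 ± 0.80 (0.93 to 4.42). Folds are on the log2(RPKM + 1) scale, which understates the change of low genes. Lrg1 passed the filter of 1 RPKM in 3 or more libraries only through SFB. Its rank and p-value here are thus not independent of the filter. Neither gene passed the test: limma with Benjamini-Hochberg adjustment over all tested genes gave adjusted p = 0.191 for Saa1 and 0.197 for Lrg1. In all, 0 of 2 members were called, beside 21 of 10482 genes (0.2%), with both members among the 1265 genes (12.1%) at an unadjusted p under 0.05. Leaving out Control 4 gave 4.18 for Saa1 (limma adjusted p = 0.0451) and 3.62 for Lrg1 (0.0593). Leaving out Control 2 gave 2.66 for Saa1 (0.474) and 2.17 for Lrg1 (0.516), and leaving out Control 2, SFB 2 and SFB 4 together gave 2.70 (0.282) and 1.93 (0.316).

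SFB against NFF is a secondary comparison, since diet and colonization both differ. Lrg1 rose by 3.30 ± 0.74 on the log2 scale (SE; 95% interval 1.69 to 4.91; limma adjusted p = 0.0228), the third highest of the 10482 genes. Saa1 did not pass, at 1.61 ± 0.82 (-0.19 to 3.40; adjusted p = 0.242). Thus 1 of 2 members was called higher, beside 329 of 10482 genes (3.14%) called higher and 769 (7.34%) called in either direction; 4.2% were called lower. Groups that did not overlap with SFB higher occurred for 1062 genes (10.1%), Lrg1 among them. Outside SFB, Control 4 alone reached 1 RPKM of Lrg1, so it passed the filter (1 RPKM in 3 or more libraries) only through SFB. Its call, its rank and its lack of overlap are thus not independent of the filter. The Lrg1 call was lost without NFF 2 (3.28, limma adjusted p = 0.0709), NFF 4 (3.17, 0.0736) or SFB 3 (2.91, 0.0616), and held without Control 2, SFB 2 and SFB 4 (3.05, 0.0485).

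NFF against Control is the diet comparison. Saa1 differed by 1.44 ± 0.89 on the log2 scale (SE; -0.50 to 3.37; limma adjusted p = 0.896) and Lrg1 by -0.63 ± 0.80 (-2.37 to 1.11; 0.914). Of the 10482 genes, 0 were called (0%) and 505 (4.82%) had an unadjusted p under 0.05, neither member among them. Without Control 4, the Lrg1 difference turned to 0.32. Between libraries of one group, Saa1 and Lrg1 varied with an SD of 1.40 and 1.25 on the log2 scale, ranks 35 and 47 of 10482, against a median of 0.22 over all tested genes. The 3 comparisons share libraries, so their values are not independent.

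**Figure D2:**
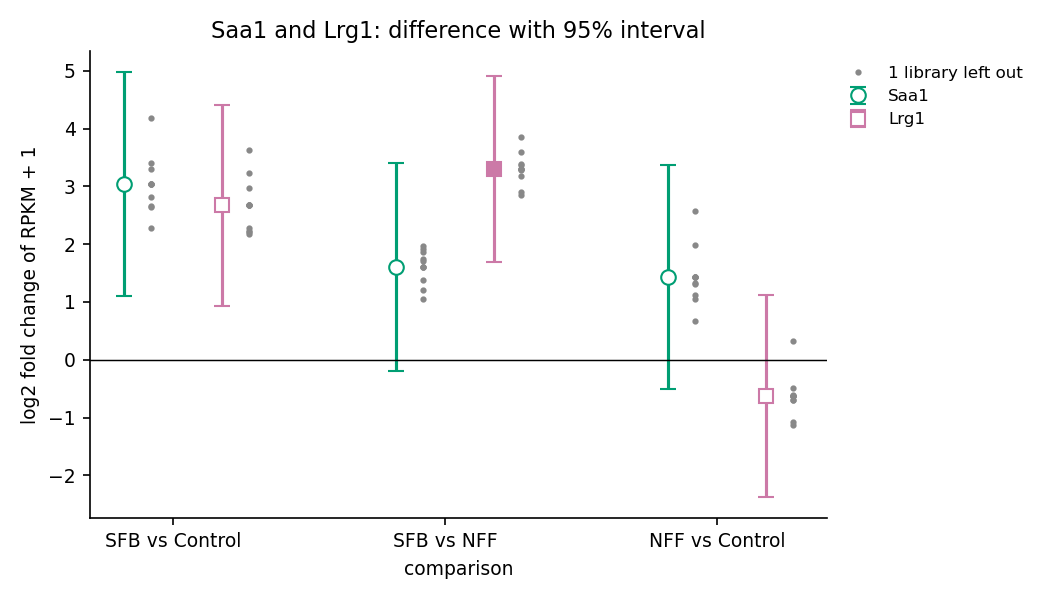
Log2 fold change of RPKM + 1 for Saa1 (circles) and Lrg1 (squares) in each comparison, with 95% intervals; filled symbols passed an adjusted p of 0.05 and grey points leave out 1 library each. Lrg1 in SFB vs NFF is the only filled symbol, at 3.30, and the highest grey point for Saa1 in SFB vs Control, 4.18, is the fit without Control 4.

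Across the 11 libraries, Saa1 and Lrg1 had a Pearson r of 0.70 (permutation p = 0.009, 2-sided) and a Spearman rho of 0.75 (permutation p = 0.0102, 2-sided), in 1 relation tested with the groups pooled. Libraries were permuted across groups, so these p-values also reflect differences between groups. Without Control 2 and Control 5, whose Saa1 lay farthest from the median, r was 0.64. With group means removed r was 0.59, which was not tested. By this measure Lrg1 had rank 95 among the genes most like Saa1, and Saa1 had rank 1375 among those most like Lrg1. The 5 genes most like Saa1 by Pearson r of log2(RPKM + 1) over 11 libraries were Med27 (0.92), Odr4 (0.90), Ceacam2 (0.89), Alpk1 (0.87) and Reg3b (0.87). Reg3b, an antimicrobial lectin, spanned 1069 to 4838 RPKM. With group means removed the 5 were Med27 (0.91), Reg3b (0.89), Irgm1 (0.89), Socs3 (0.88) and Ydjc (0.88), where Irgm1 is an interferon-induced GTPase and Socs3 a feedback inhibitor of STAT3. For Lrg1 they were Rad54l (0.98), Nudcd1 (0.97), Pla2g5 (0.97), Paip2b (0.97) and Mybl2 (0.97), and, with group means removed, Dhodh (0.98), Eif2d (0.97), Gtpbp4 (0.97), 3110082I17Rik (0.96) and Tbl3 (0.96). Rad54l acts in DNA recombination repair and Mybl2 is a transcription factor of cycling cells. These are descriptions over libraries that share groups, chosen as the highest of all tested genes.

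Upstream of both genes, receptors and signalling genes of IL-22, IL-6, IL-1 and TNF were tested for 27 of 32 listed. In SFB against NFF, 2 rose and 3 fell, with a median log2 fold change of 0.06, beside 0.02 over all tested genes. Cebpd, the C/EBP family factor of the acute phase, stood at 10.7, 14.8, 13.1 and 12.6 RPKM in SFB, against 4.66, 3.83, 4.38 and 6.98 RPKM in NFF; Control libraries 2, 4 and 5 were at 7.34, 8.28 and 9.18 RPKM. Every SFB library exceeded every other library. Over all tested genes, SFB lay above NFF without overlap for 10.1% and above Control for 3.66%. Cebpd rose by 1.23 ± 0.16 SE over NFF (limma adjusted p = 0.00206). Nfkbiz, an NF-kB cofactor that drives secondary response genes, stood at 20.4, 22.9, 27.8 and 33.6 RPKM in SFB, against 10.8, 10.4, 7.74 and 7.42 RPKM in NFF, a rise of 1.42 ± 0.19 (adjusted p = 0.0022). The SFB and NFF libraries did not overlap, whereas Control 2, at 20.9 RPKM, lay within the SFB range. Nfkb2 and Relb, subunits of the noncanonical NF-kB pathway, fell by 0.81 ± 0.19 (adjusted p = 0.0291) and by 0.68 ± 0.17 (0.0359), and Il10rb, a chain of the IL-22 receptor, fell by 0.40 ± 0.10 (0.0371). Each of these 3 calls was lost without NFF 2 or NFF 4, among other single libraries. Over the 11 libraries, the mean log2 level of the 30 listed genes with a row, tested or not, ran from 3.27 to 3.49. It had r = 0.62 with Saa1 and 0.88 with Lrg1, as a description. Such a relation was not particular to this list. Among lists described below, Lrg1 had r = 0.88 with crypt and cycling markers, -0.68 with epithelial markers, -0.68 with proximal markers and -0.61 with TGF-beta genes.

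Against Control, 0 of the 27 genes were called in SFB and 0 in NFF, with medians of 0.06 in SFB and -0.01 in NFF, beside 0.01 and -0.01 over all genes. The lowest unadjusted p in SFB against Control belonged to Stat3, the factor downstream of IL-22 and IL-6, at 15.9, 17.6, 16.6 and 14.004 RPKM in SFB, against 12.1, 10.9 and 11.4 RPKM in Control. These libraries did not overlap, as for 3.66% of all genes with SFB higher, but the difference of 0.45 ± 0.13 missed the threshold (SE; limma adjusted p = 0.197). Cebpd was next, at 0.57 ± 0.17 (0.199). In NFF against Control the lowest p belonged to Cebpd (-0.66 ± 0.17, 0.618) and Nfkbiz (-0.76 ± 0.21, 0.659). Socs3, a feedback inhibitor induced by STAT3, stood at 21.4, 30.4, 41.1 and 23.0 RPKM in SFB, against 14.03, 9.99, 15.6 and 18.2 RPKM in NFF. Control libraries ranged from 10.8 to 27.8 RPKM of Socs3, and Control 4, the highest of these, exceeded SFB 1 and SFB 4. Socs3 was highest in SFB 3, as Saa1 was. Its difference missed the threshold in SFB against NFF (0.94 ± 0.28 SE, limma adjusted p = 0.0655) and in SFB against Control (0.59 ± 0.305, 0.471).

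Receptors and partners of SAA were tested for 9 of 21 listed. In SFB against NFF, 2 rose and 0 fell, and the median was -0.46, beside 0.02 over all genes. Tlr2, a receptor to which SAA can bind, stood at 2.87, 3.32, 4.47 and 6.14 RPKM in SFB, against 1.10, 0.902, 0.525 and 0.494 RPKM in NFF and 1.38, 1.93 and 0.772 RPKM in Control. SFB libraries lay above all others. Of all tested genes, 10.1% lay so against NFF and 3.66% against Control. Tlr2 rose by 1.54 ± 0.22 SE over NFF (limma adjusted p = 0.00257). Its partner Tlr1 rose by 1.53 ± 0.21 (0.0022), with 2.48 to 4.88 RPKM in SFB and 0.353 to 0.631 RPKM in NFF. In Control 2, 4 and 5 Tlr1 stood at 0.879, 2.425 and 1.026 RPKM, so Control 4 lay just under the SFB range. Outside SFB, Control 4 and Control 5 alone reached 1 RPKM, so Tlr1 passed the filter only through SFB. Against Control, 0 of 9 were called in SFB, where Tlr2 (1.13 ± 0.23, 0.0719) and Tlr1 (0.86 ± 0.22, 0.146) had the lowest p, and 0 in NFF, where these were Lrp1, a scavenger receptor (0.72 ± 0.21, 0.699), and Abca1, a lipid exporter (1.25 ± 0.37, 0.715).

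Genes of TGF-beta signalling, on which LRG1 acts, were tested for 13 of 19 listed. In SFB against NFF, Smad4, the common SMAD, rose by 0.63 ± 0.17 (SE; limma adjusted p = 0.0418), Smad1, a BMP SMAD, rose by 0.50 ± 0.10 (0.0171), and Id2, a target of that pathway, fell by 1.14 ± 0.30 (0.0403). The list median was -0.21, beside 0.02 over all genes, and without NFF 2, without NFF 4, or without Control 2, SFB 2 and SFB 4, 0 of the 13 were called. Against Control, 0 were called in either group. The lowest p in SFB belonged to Bambi, a decoy receptor (-1.46 ± 0.39, limma adjusted p = 0.152), and Smad1 (0.30 ± 0.11, 0.318), and in NFF to Acvrl1, a type I receptor (0.47 ± 0.20, 0.896), and Smad1 (-0.20 ± 0.11, 0.896).

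Other acute phase products were tested for 6 of 30 listed. The list took in Pigr, the receptor that carries IgA into the lumen, which is not a classical acute phase product. In SFB against NFF, Pigr rose to 803.8 to 913.8 RPKM in SFB, against 315.4 to 600.4 RPKM in NFF (0.88 ± 0.22 SE, limma adjusted p = 0.0332). Its call was lost without any 1 of NFF 1, 2 or 4 or SFB 1, 3 or 4. Cfb, complement factor B, fell to 39.2 to 48.2 RPKM in SFB, against 64.9 to 66.4 RPKM in NFF (-0.57 ± 0.10, 0.0082), opposite in sign to Lrg1. Against Control, 0 of 6 were called in SFB and 0 in NFF. Mt2, a metallothionein and acute phase product, had the lowest p in SFB, with 9.88 to 23.3 RPKM in SFB and 53.5 to 76.9 RPKM in Control (-2.04 ± 0.76, 0.32), followed by Mt1, another metallothionein (-1.12 ± 0.44, 0.333). In NFF the lowest p belonged to Cfb (0.37 ± 0.11, 0.782) and Mt2 (-2.33 ± 0.76, 0.785).

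**Figure D3:**
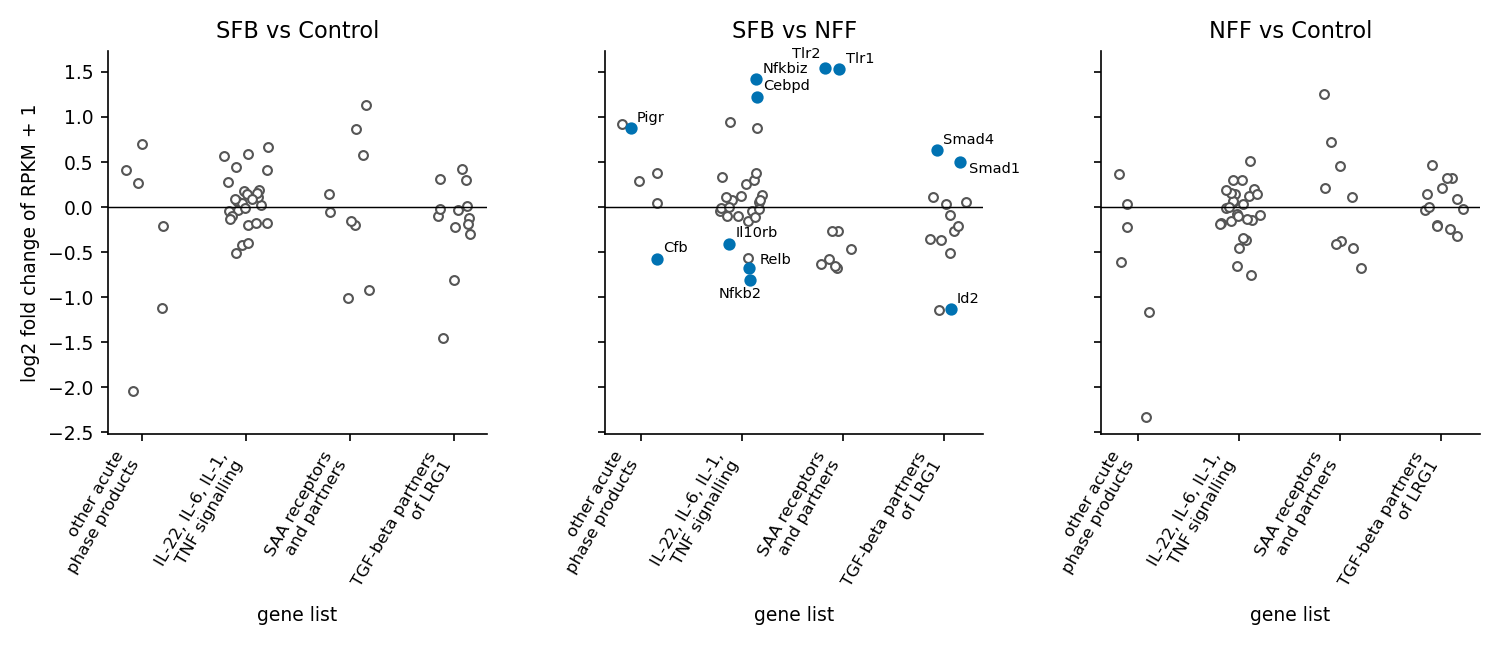
Log2 fold change of RPKM + 1 for every tested gene of the 4 lists, 1 panel per comparison; filled, named points passed an adjusted p of 0.05. Filled points appear in the SFB vs NFF panel alone, with Tlr1, Tlr2, Nfkbiz and Cebpd highest and Id2 lowest among them.

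Markers of crypt and cycling cells moved with Lrg1, although the cells had been sorted against CD44. The summed level of the 14 markers of 15 in the table was 90.3 to 372.8 RPKM in SFB, 52.9 to 76.8 in NFF and 56.5, 176.2 and 99.7 in Control 2, 4 and 5. SFB 4, SFB 3 and Control 4, high in Lrg1, had sums of 372.8, 154.8 and 176.2 RPKM. SFB 2 departed from this: its Lrg1 of 6.38 RPKM was close to the 6.93 RPKM of Control 4. Its sum, 90.3 RPKM, was below the 99.7 RPKM of Control 5, where Lrg1 was at 0.142 RPKM. In SFB against NFF, 4 of the 14 rose and 0 fell: Olfm4, a stem cell marker, by 3.00 ± 0.57, Ccnb2 by 1.66 ± 0.39, Birc5 by 1.58 ± 0.35 and Cd44 by 0.80 ± 0.16 (SE; limma adjusted p = 0.0114, 0.0277, 0.0224 and 0.0125). The Birc5 and Ccnb2 calls were each lost without NFF 1, NFF 2 or NFF 4 (limma adjusted p = 0.0543 to 0.0858). That of Ccnb2 was also lost without SFB 3 (0.0568). Olfm4 and Cd44 kept theirs with any 1 library left out, but Cd44 lost its call with the replicate number as a block (0.0531). Cd44 stood at 1.17 to 2.29 RPKM in SFB, 0.333 to 0.646 in NFF and 0.457 to 0.969 in Control. It therefore passed the filter of 1 RPKM through SFB alone. Against Control, 0 were called, and 14 of 14 lay above 0 in SFB, where 52.5% of all tested genes did, and 3 of 14 in NFF, where 48.3% did. The mean log2 level of the list had r = 0.88 with Lrg1 and 0.38 with Saa1 over 11 libraries that differ in group and depth, as a description. Its part in the Lrg1 result was not tested.

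**Figure D4:**
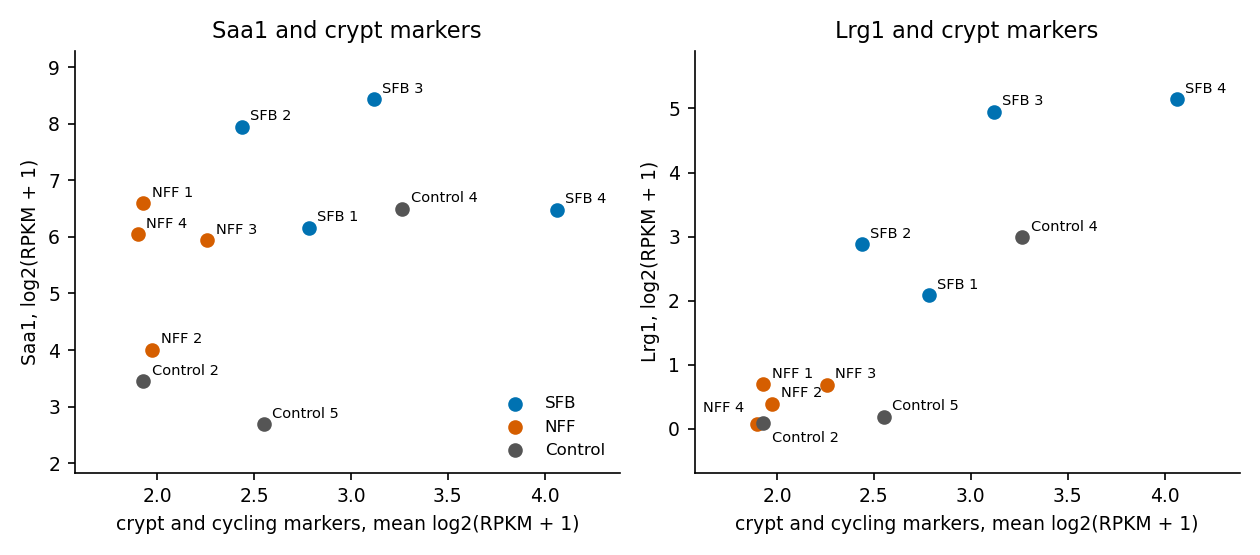
Log2(RPKM + 1) of Saa1 (left) and Lrg1 (right) against the mean log2(RPKM + 1) of 14 crypt and cycling markers, 1 point per library, coloured by group. Lrg1 is highest in SFB 3 and SFB 4 and lowest where the marker level is low, with Control 5 an exception at a middle level; Saa1 spans low to high values at the low marker levels.

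Markers of gut position moved between libraries as well. The sum of 14 distal markers was 3190 to 8086 RPKM in SFB, 7840 to 8514 in NFF and 1725, 6165 and 6747 in Control 2, 4 and 5. Saa1 was low both in Control 2, where the sum was 1725, and in Control 5, where it was 6747. Of the 14 distal markers, 2 lay above 0 in SFB against NFF, 10 in SFB against Control and 14 in NFF against Control. Their medians were -0.55, 0.29 and 0.93, and 52.7%, 52.5% and 48.3% of all tested genes lay above 0. Proximal markers above 0 numbered 5, 3 and 3 of 12, in the same order. In SFB against NFF, 3 distal markers, Nt5e, Cubn and Guca2a, fell and 0 of 12 proximal ones were called. All 3 calls were lost without NFF 1, NFF 2 or NFF 4, among other single libraries (limma adjusted p = 0.0747 to 0.114 without NFF 2). Of cells outside the gate that make these proteins, hepatocytes had 4 of 14 markers in the table, summing to 9.45 to 26.5 RPKM in SFB, 13.1 to 29.4 in NFF and 10.8 to 26.3 in Control. Of the 3 tested, Tat rose and Serpina1a fell in SFB against NFF, and the Tat call was lost without NFF 2 (limma adjusted p = 0.0558). Outside SFB, Tat reached 1 RPKM in NFF 3 and Control 4 alone, so it passed the filter only through SFB. Neutrophil and macrophage markers had 2 of 19 in the table, summing to 6.80 to 24.8 RPKM in SFB, 19.85 to 31.9 in NFF and 24.6 to 52.4 in Control. Itgam rose in SFB against NFF (1.41 ± 0.30 SE, limma adjusted p = 0.0189), a call lost without NFF 2 (0.0558) or NFF 4 (0.0589), while Lyz2, at -1.50 ± 0.53, did not pass (0.105). Lymphocyte markers had 2 of 16 in the table, endothelial 2 of 13 and stromal 2 of 15, and of the 2 genes tested among them 0 were called in any comparison, and of 12 epithelial markers 1, Krt18, fell in SFB against NFF, a call lost without NFF 2, NFF 4, SFB 3 or SFB 4 and without Control 2, SFB 2 and SFB 4 together (limma adjusted p = 0.0506 to 0.0811). The hepatocyte marker Alb and the neutrophil marker S100a8 were not analysed here. The part of these cells, and of gut position, in the results was not tested.

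Genes near Saa1 and Lrg1 did not pass the test in any comparison. Within 100 kb of Saa1, 5 genes were tested: Tph1, Saal1, Hps5, Gtf2h1 and Ldha. Saal1, named for its likeness to SAA, differed by 0.26 ± 0.16 in SFB against Control (SE; limma adjusted p = 0.561) and by 0.32 ± 0.15 in SFB against NFF (0.215). Tph1, the serotonin synthesis enzyme of enteroendocrine cells, differed by -2.07 ± 0.65 in SFB against NFF (0.0743), with the sign opposite to Saa1. Within 100 kb of Lrg1, 7 genes were tested: Sh3gl1, Ubxn6, Hdgfl2, Sema6b, Tnfaip8l1, Mydgf and Dpp9. Ubxn6 came closest, at -0.36 ± 0.11 in SFB against NFF (0.0644). No annotated gene overlapped Saa1 or Lrg1.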

How the data were processed

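Per the labels' protocols, sorted cells were lysed, total RNA was purified, full-length cDNA was made with SMART-seq v4 and libraries with NexteraXT. Reads were aligned with STAR to mm10, per the submitters' processing notes. The authors deposited 1 table of RPKM values, per the file headers. The sources used here do not name the counting tool or its annotation. Of its columns, 0 belonged to no sample. 15 symbols turned into dates were restored through Entrez identifiers.

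Values were analysed as log2(RPKM + 1) with limma 3.58.1 in R 4.3.3: 1 mean per group over 11 libraries, eBayes with a mean trend, and Benjamini-Hochberg adjustment over the 10482 genes that reached 1 RPKM in 3 or more libraries (884 left out). Called genes had an adjusted p under 0.05. The fit was run on simulated data with independent normal noise for each gene, which cannot show how it behaves under deviations shared by many genes.

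Depth was recovered, a check chosen after the data were seen, from RPKM times GENCODE M21 transcript length, whose low values fell on whole multiples of 1 step per library. Of Lrg1 values under 200 reads, 9 of 9 lay within 0.1 of a whole read, and 3 of 3 for Saa1; both genes had been left out of the search. Counting intervals are exact Poisson at 95%. Sequences came from RefSeq GRCm38.p6, coordinates of genes from GENCODE M21 on GRCm38, which mm10 names. Alignments used Biopython 1.88.

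The members, lists and alternatives were chosen with earlier results of these data known. From each list the text names called genes (up to 4 by size of change) or, with none called, up to 2 of lowest p, and for the cell and position marker lists called genes alone; further genes were chosen with their values in view. Alternatives covered pseudocounts, filters, scalings, eBayes settings and library weights, a fit of 2 groups, the replicate number as a block, and libraries left out.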

Additional observations from a re-analysis of the deposited data

How the results depend on the processing

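Folds below are log2, on RPKM plus the pseudocount, with limma's adjusted p. Leaving out 1 library at a time gave, for Saa1, 2.28 to 4.18 in SFB against Control, 1.06 to 1.97 in SFB against NFF and 0.67 to 2.58 in NFF against Control. For Lrg1 it gave 2.17 to 3.62, 2.84 to 3.86 and -1.13 to 0.32 in the same comparisons. Lrg1 in NFF against Control turned to 0.32 without Control 4. In SFB against Control, Saa1 passed without Control 4 (4.18, adjusted p = 0.0451), and with array weights both passed (Saa1 2.90, 0.0156; Lrg1 1.56, 0.047). They gave, in SFB against NFF, 1.61 for Lrg1 (0.00408) and 0.64 for Saa1 (0.331), against 3.30 and 1.61 with equal weights. Those weights gave SFB 1 a weight of 22.1 and SFB 4 one of 0.152, and their estimation did not converge. Pseudocounts of 0.1 and 3 gave 4.85 and 2.27 for Lrg1 in SFB against NFF, called in both, and 4.22 and 1.84 in SFB against Control, not called.

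The 21 genes called in SFB against Control became 11 with median ratio scaling, 1948 with array weights, 1 with only the 2 groups, 0 with the replicate block, 95 without Control 2, SFB 2 and SFB 4, and 7 to 94 with 1 library left out. The 769 in SFB against NFF became 1173 with quantile normalization, 4720 with array weights, 335 with the block and 240 to 994 with 1 library left out. The 0 in NFF against Control became 40 with array weights, 1 with only the 2 groups, 22 without the 3 libraries, and 0 to 8 with 1 left out. The cause of these shifts was not tested.

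Whether libraries with the same number shared anything beyond it, such as a batch, is not known here and was not tested. Correlations of their deviations from group means ran from -0.301 for NFF 3 with SFB 3 to 0.668 for SFB 4 with Control 4. NFF 1 had 0.0277 with SFB 1 and 0.0594 with SFB 2. With the replicate block, Saa1 stood at 1.95 in SFB against Control, 1.61 in SFB against NFF and 0.34 in NFF against Control, and Lrg1 at 2.24, 3.30 (adjusted p = 0.0287) and -1.07; no member's call changed. Scaling moved the median gene by at most 0.0128. Depth limits Lrg1: 6 libraries had 1 to 12 reads, and among these the counting intervals of NFF 1 and NFF 3 alone stood clear of another, that of NFF 4.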
